A study of Mus musculus with 6 samples.

Results

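The mouse genome carries 127 protein-coding genes on chromosomes 1 to 19 whose symbol is Zfp followed by a number from 700 to 999, out of 20722 protein-coding genes on those chromosomes in GENCODE M21 (GRCm38). The rule uses the symbol alone and no measured value. Their promoters and gene bodies were read in maps of Tex10 and of H3K4me3, the promoter mark made by methylation of histone H3 at lysine 4. The cells were primordial germ cell-like cells (PGCLCs), cultured counterparts of the embryonic precursors of eggs and sperm, at day 2, of strain 129Sv/J and untreated. Tex10, a protein known from ribosome assembly and from pluripotent cells, carried an HA tag at its C-terminal end and was precipitated through that tag. There were 2 HA-Tex10, 2 H3K4me3 and 2 input samples, all in these same cells, and no group without the tag is among the samples analysed. The labels do not say whether the samples of a group came from separate cultures, nor whether the tagged cells were a single clone.

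Each antibody is represented by 1 deposited list of intervals, 4331 for HA-Tex10 and 29072 for H3K4me3, without heights or scores. No gene therefore has a value per sample, no spread between replicates exists, and the sequencing depth is unknown. A gene was counted as carrying an interval at a transcription start site (TSS) when one came within 1 kb of the start of any of its protein-coding transcripts, and over the gene body when one shared at least 1 bp with it. Shares are given with 95% Wilson intervals and differences with 95% Newcombe intervals, which cover the counting of genes only and treat neighbouring genes as independent, which they are not. Of 6 germ cell genes, 4 had H3K4me3 at a TSS (Prdm1, Prdm14, Tfap2c and Kit) and Dppa3 and Nanos3 had none, while the mark was at 62.6% of all genes, so that this count does not test the cell label. These lists hold promoter marks and not transcripts.

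Zfp genes encode proteins with arrays of C2H2 zinc fingers, each a short loop held by a zinc ion that reads a few bases of DNA. Many also carry a KRAB domain near the start of the protein, which recruits the corepressor Trim28 and, through it, the H3K9 methyltransferase Setdb1, HP1 proteins and DNA methylation. KRAB zinc finger proteins are best known for silencing retrotransposons in early embryos and germ cells. Zfp809, which recognises the primer binding site of murine leukaemia viruses, belongs to the genes described here. The family has grown by tandem duplication, so that many members lie side by side in arrays of similar sequence.

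Fingers and KRAB letters were counted in the encoded proteins. Translated coding transcripts held a median of 11 fingers, with a range of 0 to 23, in proteins of a median 538 residues. The core letters of a KRAB box (LY, any residue, D or E, then VM) were found in 81 of the 127, or 63.8%, against 32.5% of the 231 genes named Zfp1 to Zfp699, the most similar group. A KRAB domain with other letters, or one present only in a shorter transcript, was not counted. Zfp972, Zfp703, Zfp781, Zfp750, Zfp839, Zfp935 and Zfp957 matched no finger under the spacing used. A total of 70 genes lay under 100 kb from another of the 127, in 23 clusters, and 57 stood alone by that rule.

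H3K4me3 was present at the TSS of 116 of the 127 genes, a share of 91.3% (85.2 to 95.1), where the share over all protein-coding genes was 62.6%. The difference from all other protein-coding genes was 28.9 percentage points (22.7 to 32.8). Zfp1 to Zfp699 stood at 90.0%, and the difference of 1.30 points between the numbered groups had an interval from -5.68 to 7.19 that includes 0. Over the gene body, 117 genes had H3K4me3 (92.1%, against 66.1% of all genes), the added gene being Zfp831. Intervals with mostly repeated sequence carried part of this count: without them 63.8% of the 127 and 61.3% of all genes had H3K4me3 at a TSS. Of the 90 genes whose 5'-most TSS was mostly single-copy, 93.3% (86.2 to 96.9) were marked, against 65.1% of all genes with such a TSS. Mostly repeated intervals still counted in those shares. Leaving them out lowered the number of marked genes from 116 to 81, while only 32 marked genes had a mostly repeated TSS. Some single-copy genes were therefore marked only through mostly repeated intervals.

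**Figure D1:**
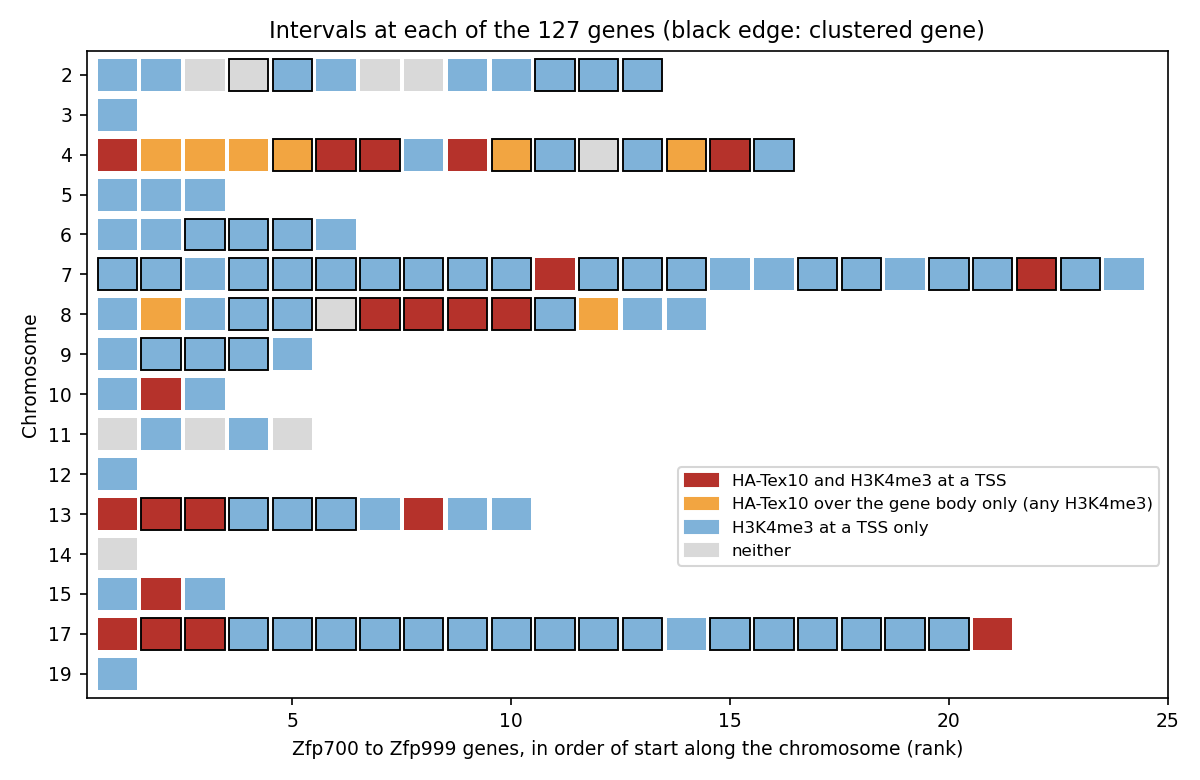
Each tile is 1 of the 127 genes, placed by chromosome (vertical axis) and by rank along it (horizontal axis), with colour showing which intervals it carried and a black edge marking genes under 100 kb from another. Most tiles are blue (H3K4me3 at a TSS only), the 21 red tiles carry both intervals at a TSS, and the row of chromosome 4 holds most of the orange tiles with HA-Tex10 in the gene body only.

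The mark was found at promoters poor in CpG dinucleotides, which over the genome mostly lacked it. The observed over expected CpG ratio in the kilobase around the 5'-most TSS had a median of 0.46 in these genes, 0.58 in all genes and 0.66 in Zfp1 to Zfp699. All genes were divided by that ratio into 3 classes of equal size, at 0.32 and 0.72. In the low class, 25 of 30 of the genes had H3K4me3 (83.3%, 66.4 to 92.7), against 13.1% of all genes and 61.1% of Zfp1 to Zfp699. With single-copy TSS alone the low class gave 10 of 13 (76.9%) against 14.3%, mostly repeated intervals still being counted. In the middle class the shares were 92.6% and 76.3%, and in the high class 100% and 98.3%. When each gene was given its highest ratio over all coding TSS, a setting chosen after seeing the data, the low class gave 33 of 43 (76.7%) against 8.01% of all genes.

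**Figure D2:**
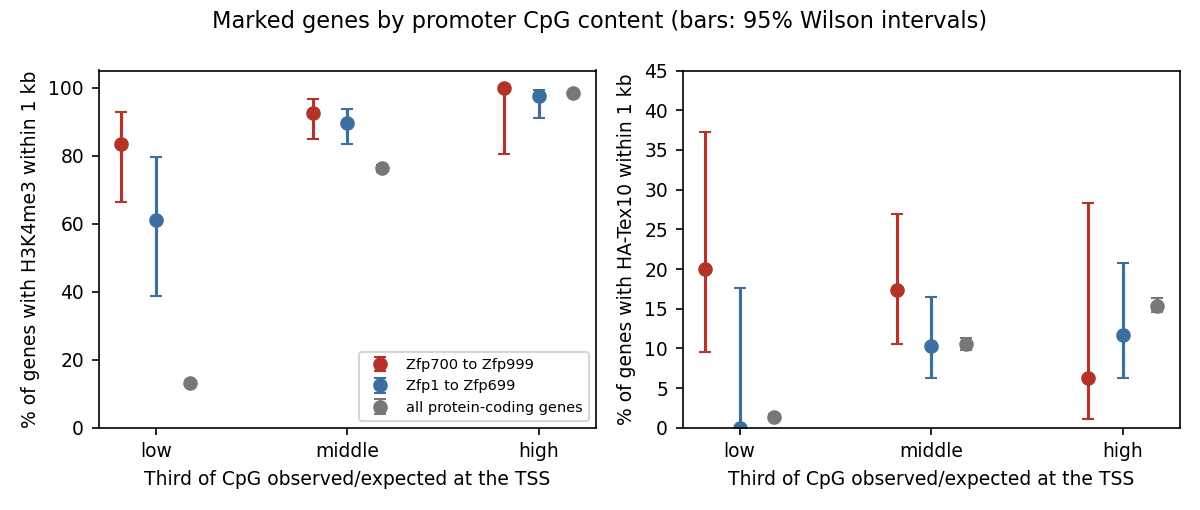
Points give the percent of genes with H3K4me3 (left) or HA-Tex10 (right) within 1 kb of a TSS in each class of the CpG ratio, and bars give 95% Wilson intervals. In the low class the Zfp700 to Zfp999 genes stand at 83.3% for H3K4me3 and 20.0% for HA-Tex10, and all genes at 13.1% and 1.42%.

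H3K4me3 intervals at these promoters were of ordinary width, with a median of 1214 bp against 1360 bp over all marked genes. Zfp740 had the widest at 5002 bp, followed by Zfp710 at 4357 bp. Zfp827, whose human counterpart is known for bringing a chromatin remodelling complex to telomeres, had 3812 bp. Zfp961 had 3584 bp and Zfp866 3019 bp, both in clusters on chromosome 8. The narrowest were those of Zfp937 (231 bp), Zfp872 (283 bp), Zfp772 (348 bp), Zfp983 (349 bp) and Zfp786 (364 bp). Clustered genes had a median width of 1120 bp and single genes 1421 bp. Coverage by H3K4me3 was highest 200 bp downstream of the 5'-most coding TSS, where 85.0% of the genes were covered, against a highest value of 53.5% for all genes at 250 bp.

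**Figure D3:**
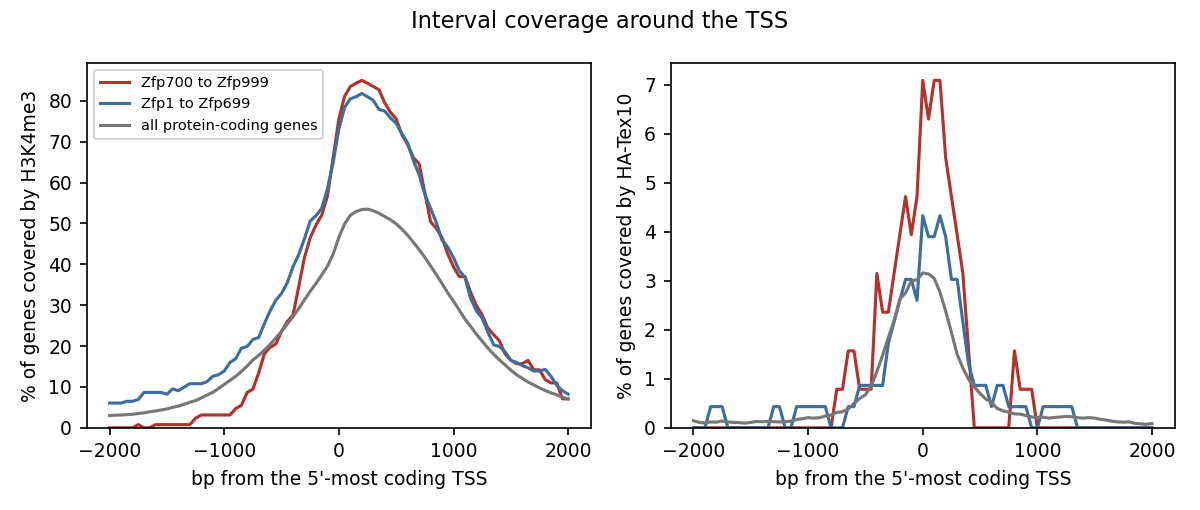
The percent of genes covered by an H3K4me3 interval (left) or an HA-Tex10 interval (right) is plotted against the distance in bp from the 5'-most coding TSS, positive downstream. H3K4me3 reaches 85.0% in the Zfp700 to Zfp999 genes, 81.8% in Zfp1 to Zfp699 and 53.5% in all genes. HA-Tex10 is highest at the TSS, at 7.09%, 4.33% and 3.16%.

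The genes without H3K4me3 at a TSS numbered 11 and lay on chromosomes 2, 4, 8, 11 and 14. Zfp968, Zfp966 and Zfp967 lie in an array on chromosome 2, where the sequence around their TSS consists wholly of repeated words. Their nearest H3K4me3 interval was 34183, 34809 and 34372 bp away. Zfp965, Zfp969 and Zfp973 of the same array also have wholly repeated TSS surroundings, and an H3K4me3 interval was listed at a TSS of each. Marked Zfp969 and unmarked Zfp967 both have a length of 11424 bp and 485 residues. Which of these similar genes gave the H3K4me3 reads is uncertain and was not tested, so their presence or absence of the mark is that of listed intervals. A mostly repeated TSS was found in 5 of the 11 unmarked genes. Zfp831, also on chromosome 2, had its nearest interval at 1067 bp, just outside the window. Zfp992 and Zfp982 lie in the array on chromosome 4. Zfp879, Zfp735 and Zfp750, on chromosome 11, had nearest intervals at 9071, 70799 and 66340 bp. The last of these is known as a regulator of epidermal differentiation. Zfp957, on chromosome 14, had its nearest interval at 33401 bp. For Zfp869, on chromosome 8, the nearest H3K4me3 interval was 5878 bp from the GENCODE start. The RefSeq start of this gene lies 6178 bp from that start and did have H3K4me3 within 1 kb. Zfp982 likewise had the mark at a RefSeq start, so the count of unmarked genes depends on the annotation in these 2 of the 8 unmarked genes with a RefSeq start.

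HA-Tex10 was present at the TSS of 21 of the 127 genes, a share of 16.5% (11.1 to 24.0), where the share over all protein-coding genes was 9.13%. All 21 had H3K4me3 at a TSS, as did 1854 of the 1891 protein-coding genes with HA-Tex10 at a TSS. Among genes with H3K4me3 there, the share was 18.1%, against 14.3% of all marked genes and 11.1% of marked Zfp1 to Zfp699 genes. The difference from all other genes was 7.46 points (1.98 to 14.9). Against the 9.96% of Zfp1 to Zfp699 it was 6.58 points, with an interval from -0.521 to 14.7. Over the gene body, 24 genes had HA-Tex10 (18.9%, against 9.86% of all genes), and 29 had it at a TSS or over the body.

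The excess of HA-Tex10 over the other genes varied with the chromosomes included, with wide and overlapping intervals. Without chromosome 4 the difference from all other genes at a TSS was 5.29 points (-0.0708 to 13.0) and over the gene body 2.81 points (-2.16 to 10.3). Without chromosome 8 alone those differences were 7.06 points (1.61 to 14.8) and 7.29 points (1.67 to 15.1). Without chromosomes 4 and 8 the share at a TSS was 12 of 97 (12.4%) against 7.96% of all other genes, and over the body 8.25% against 8.56%. Chromosome 8 has a high share throughout: 30.0% of all its genes had HA-Tex10 at a TSS, and 4 of the 14 Zfp genes there did. The larger gene-body share than in Zfp1 to Zfp699, a difference of 9.81 points (2.48 to 18.1), became 2.94 points (-3.86 to 11.1) without chromosome 4. With mostly repeated intervals left out, 9.45% of the 127 and 8.63% of all genes had HA-Tex10 at a TSS.

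HA-Tex10 intervals at these promoters came within 1 kb of a TSS by the rule that chose them, which in part fixes their distance from it. The 21 genes were reached by 21 distinct intervals of median width 284 bp, against 234 bp for all HA-Tex10 intervals at coding TSS. Of the 21 intervals, 19 overlapped H3K4me3, a share that was not counted over all HA-Tex10 intervals. Of the 22 pairs of gene and interval, 17 had the interval's centre within 300 bp of the nearest coding TSS of the gene. The centre was downstream in 11 and upstream in 11. These counts were not made for all HA-Tex10 intervals at coding TSS. Mostly repeated sequence made up 9 of the 21 intervals (42.9%), against 7.34% of the 1771 HA-Tex10 intervals at coding TSS. On chromosome 4 this held for 5 of 5 intervals and elsewhere for 4 of 16. The repeated part of these 9 ranged from 53.8% of words, at Zfp935 and Zfp934, to 100%. Reads from repeated words may come from another copy, and how reads with several placements were treated is not given. Which copy gave the reads of these intervals is therefore uncertain and was not tested. A mostly single-copy interval was found at 12 of the 21 genes. By CpG class, HA-Tex10 stood at the TSS of 6 of the 30 genes of the low class (20.0%) against 1.42% of all genes there, but with single-copy TSS alone at 1 of 13 (7.69%, 1.37 to 33.3) against 1.45%.

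Those 12 genes were Zfp788 and Zfp747 on chromosome 7, Zfp963, Zfp866, Zfp709 and Zfp882 on chromosome 8, Zfp873 on chromosome 10, Zfp748 on chromosome 13, Zfp707 on chromosome 15, and Zfp960, Zfp948 and Zfp983 on chromosome 17. The interval centre lay 18.5 bp upstream of a TSS at Zfp707 and 17.5 bp downstream at Zfp948, 36.5 bp downstream at Zfp747, and 30.0 and 66.5 bp upstream at Zfp709 and Zfp882. At Zfp748 it lay furthest away of the 12, at 886 bp downstream. Zfp983 was the 1 gene of the 12 whose HA-Tex10 interval did not itself overlap an H3K4me3 interval, although a narrow one lay within 1 kb of its TSS. Zfp960 had a second, mostly repeated interval 689 bp upstream. The remaining 9 genes were reached only through mostly repeated intervals: Zfp990, Zfp981, Zfp993, Zfp991 and Zfp984 on chromosome 4, Zfp808, Zfp935 and Zfp934 on chromosome 13, and Zfp959 on chromosome 17.

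Whole intervals that lie outside annotated exons show what such sites look like. Those at Zfp788 (chr7:41632905-41633084, plus strand), at the promoter shared by Zfp935 and Zfp934 (chr13:62558843-62558953, minus strand) and at Zfp960 (chr17:17063867-17064095, plus strand) are printed 5′ to 3′ on GRCm38, with matches to the searched motifs in capitals: a GC box at Zfp935 and Zfp934, and CCAAT boxes and ETS cores, in either orientation, at Zfp960.
Zfp788: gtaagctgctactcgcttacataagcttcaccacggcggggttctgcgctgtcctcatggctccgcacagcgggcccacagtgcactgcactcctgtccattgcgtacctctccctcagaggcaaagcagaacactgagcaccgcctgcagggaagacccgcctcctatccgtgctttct
Zfp935 and Zfp934: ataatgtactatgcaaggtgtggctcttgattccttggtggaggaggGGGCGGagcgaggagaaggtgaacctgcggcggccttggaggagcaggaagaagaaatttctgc
Zfp960: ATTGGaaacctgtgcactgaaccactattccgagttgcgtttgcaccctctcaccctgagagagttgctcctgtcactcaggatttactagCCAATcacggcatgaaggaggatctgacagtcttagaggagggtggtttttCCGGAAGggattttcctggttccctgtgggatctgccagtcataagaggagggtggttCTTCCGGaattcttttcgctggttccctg
They differ in base composition, with 60.0% G or C at Zfp788, 55.0% at Zfp935 and Zfp934 and 51.1% at Zfp960. The Zfp788 interval matched none of the 9 motifs and held 10 CpG.

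**Figure D4:**
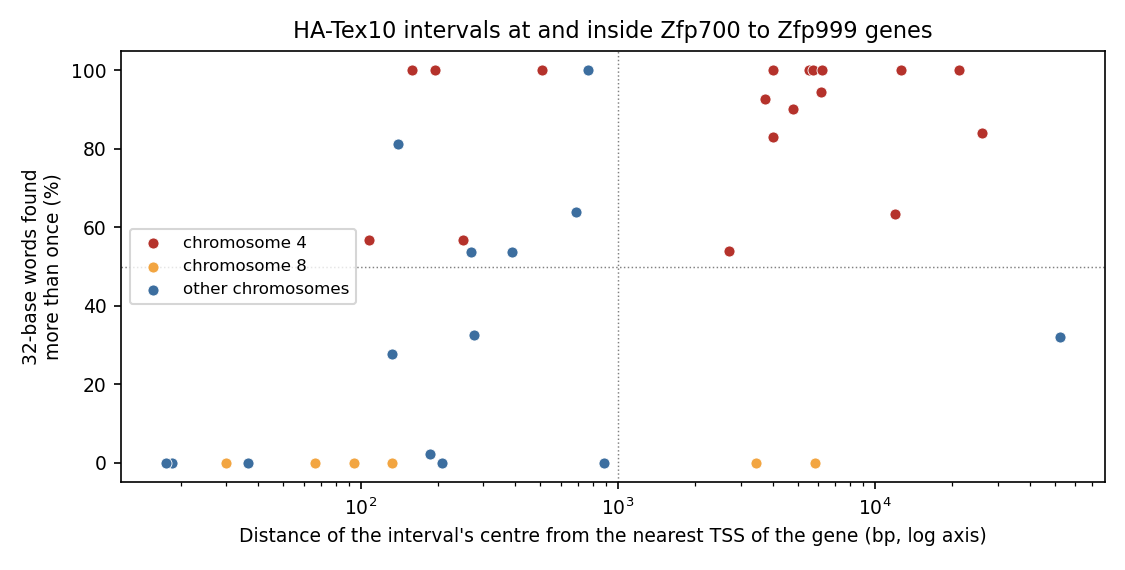
Each point is an HA-Tex10 interval at or inside a Zfp700 to Zfp999 gene, placed by the distance of its centre from the nearest TSS of that gene (bp, log axis) and by the percent of its 32-base words that occur more than once in the genome; dotted lines mark 1000 bp and 50%. The 18 intervals of chromosome 4 all lie above 50%, and the 6 of chromosome 8 lie at 0%.

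The array on chromosome 4, chr4:145510759-147848366, held 16 of the genes in 2.34 Mb, all with KRAB letters. Of these, 14 had H3K4me3 at a TSS, 5 had HA-Tex10 at a TSS, and 11 had it at a TSS or in the body. Over all genes of chromosome 4 those shares were 67.0%, 8.67% and 12.3%. Of the 6 other coding genes in the array, 5 had H3K4me3 and 2 HA-Tex10 at a TSS. Zfp989, Zfp978, Zfp982, Zfp985 and Zfp933 had no HA-Tex10. The region held 39 HA-Tex10 intervals, 36 of them mostly repeated, which is 16.7 per Mb against 1.65 per Mb over the whole chromosome. The body-only intervals of these genes numbered 13, each mostly repeated, and 8 of them overlapped H3K4me3. An array on chromosome 2, chr2:175372436-178078476, held 10 of the genes in 2.71 Mb, and 7 had H3K4me3 but none HA-Tex10. Of the 28 other coding genes in that array, 22 had H3K4me3 and 0 HA-Tex10 at a TSS. Over all protein-coding genes the shares were 62.6% and 9.13%. All 13 Zfp700 to Zfp999 genes on chromosome 2 lacked HA-Tex10 at a TSS, and the interval of 0 to 22.8% includes 9.13%. The lack is therefore not set apart from all genes by these counts. The 1 HA-Tex10 interval in the array gives 0.370 per Mb, against 1.35 per Mb over that chromosome. Repeated words took up a median of 100% of the TSS surroundings in the array on chromosome 2 and 70.4% in that on chromosome 4. Both regions were singled out after their values were seen, and the part of repeated sequence in the difference was not tested.

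The intervals on chromosome 4 included close copies of each other. Among the 18 intervals at or in these genes, 16 of 153 pairs aligned with at least 80% identity over at least 80 columns, and 13 intervals fell into 3 families. The main family had 9 intervals in 8 genes (Zfp990, Zfp980, Zfp987, Zfp981, Zfp993, Zfp991 with a pair of intervals, Zfp988 and Zfp984). The Zfp991 interval centred 26093 bp downstream of the TSS joined through Zfp987 alone, at 92.9% identity over 98 columns. The genome sequence masks 83.4% of that interval and 52.9% of the Zfp987 interval as repeats. Whether they share more than a repeat found elsewhere was not tested. The family is joined through chains of pairs: 14 of its 36 pairs passed, at 84.3 to 99.5% identity, and Zfp990 passed with 4 of the other 8. Among the 5 intervals of Zfp990, Zfp988, Zfp980, Zfp981 and Zfp984 of this family, 9 of 10 pairs passed. These 5 lay at different places relative to the annotated TSS. The interval centre was 158 bp downstream at Zfp990, 250 bp downstream at Zfp981 and 108 bp downstream at Zfp984, but 4006 bp downstream at Zfp980 and 4798 bp at Zfp988. The stretch shared by 5 of them is printed to show how alike they are, 5′ to 3′ along each gene, with bases that differ from Zfp990, or are added next to it, in capitals. The stretches lie at chr4:145515019-145515136 (Zfp990, plus strand), chr4:147310690-147310802 (Zfp988, plus strand), chr4:145674641-145674758 (Zfp980, plus strand), chr4:146502145-146502262 (Zfp981, plus strand), chr4:147809576-147809667 (Zfp984, minus strand) on GRCm38.
Zfp990: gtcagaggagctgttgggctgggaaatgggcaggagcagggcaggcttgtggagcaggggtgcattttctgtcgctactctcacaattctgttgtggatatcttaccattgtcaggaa
Zfp988: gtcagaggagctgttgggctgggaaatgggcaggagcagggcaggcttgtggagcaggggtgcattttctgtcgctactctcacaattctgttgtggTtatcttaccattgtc
Zfp980: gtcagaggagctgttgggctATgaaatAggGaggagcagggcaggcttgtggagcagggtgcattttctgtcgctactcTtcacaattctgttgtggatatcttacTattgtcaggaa
Zfp981: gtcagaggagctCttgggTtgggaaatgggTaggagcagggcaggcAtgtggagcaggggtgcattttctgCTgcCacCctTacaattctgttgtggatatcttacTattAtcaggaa
Zfp984: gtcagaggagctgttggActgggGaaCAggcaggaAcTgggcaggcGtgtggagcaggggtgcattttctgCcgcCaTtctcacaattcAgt
Zfp988 has 1 such base in this stretch, Zfp980 has 6, and Zfp981 and Zfp984 have 11 each, bases missing from a copy not being shown. Over the aligned parts of whole intervals, Zfp988 matched Zfp990 at 184 of 185 columns. The lists do not tell which copy the reads came from, so the count of genes with HA-Tex10 on chromosome 4 is a count of listed intervals.

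Clustered and single genes did not differ in their marks beyond the counting error. H3K4me3 stood at the TSS of 94.3% of the 70 clustered and 87.7% of the 57 single genes, a difference of 6.57 points (-3.62 to 18.1). HA-Tex10 stood at the TSS of 17.1% and 15.8%, a difference of 1.35 points (-12.2 to 14.1), and over the body of 17.1% and 21.1%. H3K4me3 was at every gene in 19 of the 23 clusters, and HA-Tex10 was at a TSS in 7. The pair Zfp935 and Zfp934, which share a promoter, was the 1 cluster with HA-Tex10 at a TSS of every gene. The rule leaves as single some genes of the arrays on chromosomes 2 and 4, whose neighbours are over 100 kb away, and 16 of the 57 single genes had some other Zfp, Zscan or Zkscan gene nearby.

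The largest cluster, 9 genes in 659 kb of chromosome 17, had H3K4me3 at a TSS of every gene. Zfp948 and Zfp983, at one end of it, had HA-Tex10, and Zfp760, Zfp820, Zfp995, Zfp942, Zfp943, Zfp947 and Zfp994 did not. The H3K4me3 interval at the TSS ranged from 349 bp at Zfp983 to 1899 bp at the promoter shared by Zfp942 and Zfp943. All 9 had KRAB letters and between 9 and 17 fingers. In the cluster of 5 on chromosome 8, Zfp963 and Zfp866 had HA-Tex10 and H3K4me3, Zfp868 and Zfp964 H3K4me3 only, and Zfp869 neither at its GENCODE start. Zfp866 has a pair of coding TSS 16.3 kb apart. Its 3019 bp H3K4me3 interval is at the start that lies 15 bp from the TSS of Atp13a1, a gene of another family. Its HA-Tex10 interval is at the other start, with H3K4me3 of 967 bp, 25 bp from a TSS of the gene Gm20422. In the cluster of 4 on chromosome 7, Zfp747 had HA-Tex10 and H3K4me3, and Zfp771, Zfp768 and Zfp764 had H3K4me3 only. The cluster of 4 on chromosome 17 (Zfp871, Zfp811, Zfp799 and Zfp870) had H3K4me3 at every gene, with widths from 403 bp at Zfp811 to 1880 bp at Zfp871, and no HA-Tex10.

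Genes with KRAB letters had HA-Tex10 at a TSS in 17 of 81 cases (21.0%) and genes without in 4 of 46 (8.70%), a difference of 12.3 points (-1.52 to 23.7). Without chromosome 4, where all 16 genes had KRAB letters, it was 9.77 points (-4.11 to 22.0). Without chromosome 8 it was 16.0 points (2.27 to 27.3), and without chromosomes 4 and 8 it was 13.0 points (-0.752 to 25.5). H3K4me3 stood at 93.8% and 87.0%. Genes without the letters may still encode a KRAB domain. Genes with at least 11 fingers had HA-Tex10 at 19.4% and the others at 13.3%, a difference of 6.07 points (-7.22 to 18.8). Genes with a mostly repeated TSS had HA-Tex10 in 10 of 37 cases (27.0%) and single-copy genes in 11 of 90 (12.2%), a difference of 14.8 points (0.487 to 31.6). Over all genes the order was the other way, with 7.08% of those with a mostly repeated TSS and 9.25% of those with a single-copy one. Without chromosome 4 the difference was 9.24 points (-5.53 to 30.1). A TSS within 1 kb of another coding gene's TSS was found for 11 genes, of which 4 had HA-Tex10 (36.4%, 15.2 to 64.6). Over all genes 13.1% had such a TSS, and 22.1% of those had HA-Tex10.

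HA-Tex10 was also listed inside 8 genes without being at their TSS. Of these, 6 were on chromosome 4 (Zfp980, Zfp986, Zfp987, Zfp992, Zfp988 and Zfp979). The other two were single-copy sites on chromosome 8. At Zfp703, a transcriptional corepressor, a 588 bp interval lay across the end of the gene with its centre 3454 bp downstream of the TSS. At Zfp827 a 303 bp interval lay in an intron, 5866 bp upstream of the nearest coding TSS and inside the gene. Neither overlapped H3K4me3.

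Promoter sequences added a feature that the intervals did not. RefSeq promoters, 250 bases before to 50 after the start on GRCm38.p6, were matched by symbol for 109 of the 127 genes. The CCAAT box (letters CCAAT, searched on both strands), the element bound by the NF-Y complex, was in a promoter of 73 of them, or 67.0% (57.7 to 75.1), against 41.7% of all genes and 42.8% of Zfp1 to Zfp699. Counted by promoter, because some genes have several, the shares were 65.4%, 37.5% and 37.0%. Among promoters with 48.3 to 57.3% G or C they were 81.2%, 40.5% and 45.2%. Between 130 and 41 bases upstream of the start, 48.0% of the promoters held the box, against 18.9% of all promoters. It was in 69.0% of promoters of clustered genes and 60.7% of those of single genes, and in 70.9% of promoters of genes with KRAB letters and 53.7% of the others.

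Set against all genes, the other 8 motifs were less frequent or closer to the background. The GC box (GGGCGG) was in 40.4% of the genes, against 51.6% of all genes, 49.7% of Zfp1 to Zfp699 and 71.6% of genes with H3K4me3. The ETS core (CCGGAAG) was in 17.4%, against 13.6% of all genes and 27.3% of Zfp1 to Zfp699. The E-box (CACGTG) was in 12.8%, against 9.22% of all genes and 5.35% of Zfp1 to Zfp699. The YY1 core (AAGATGGC), NRF1 core (GCATGCGC), CRE (TGACGTCA) and ZNF143 core (ACTACAA) were in 4.59%, 3.67%, 1.83% and 0.917%. Over all genes they were in 3.62%, 4.13%, 2.70% and 4.39%, and in Zfp1 to Zfp699 in 6.95%, 6.95%, 4.81% and 10.2%. For the ZNF143 core the intervals were 0.162 to 5.01 in the genes and 6.60 to 15.3 in Zfp1 to Zfp699. The core of a ZBTB33-type palindrome (CTCGCGAG) was in 0 of the 109 genes, against 1.42% of all genes and 1.07% of Zfp1 to Zfp699. Among the 16 genes with HA-Tex10 at a TSS and a RefSeq promoter, 12 held the CCAAT box (75.0%, 50.5 to 89.8), a share whose interval contains the 67.0% of all 109.

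**Figure D5:**
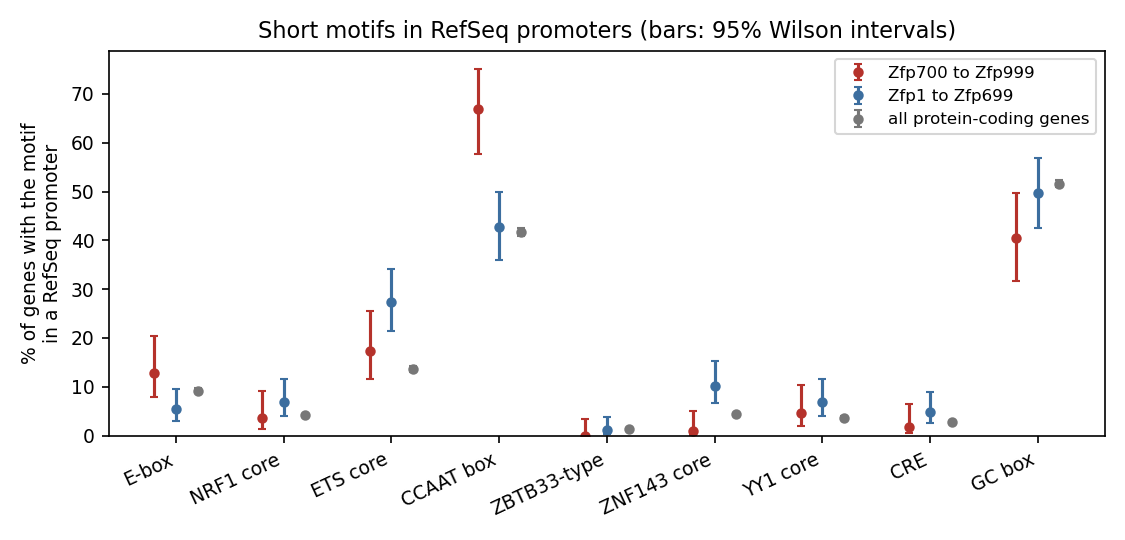
Points give the percent of genes with each of 9 motifs, on either strand, in a 300-base RefSeq promoter, and bars give 95% Wilson intervals. For the CCAAT box the Zfp700 to Zfp999 genes stand at 67.0% and the other groups at 41.7% and 42.8%.

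The 150 bases before the RefSeq start of 6 genes of the larger clusters show the box in capitals, as CCAAT or as its reverse complement ATTGG. They were picked from the promoters of these clusters that touch no exon, to show the number of boxes from 0 to 3, and lie at chr8:69625549-69625698 (Zfp868, minus strand), chr8:69716903-69717052 (Zfp869, minus strand), chr8:69774912-69775061 (Zfp866, minus strand), chr17:32830262-32830411 (Zfp799, minus strand), chr7:127376051-127376200 (Zfp747, minus strand), chr17:21566828-21566977 (Zfp948, plus strand) on GRCm38.
Zfp868: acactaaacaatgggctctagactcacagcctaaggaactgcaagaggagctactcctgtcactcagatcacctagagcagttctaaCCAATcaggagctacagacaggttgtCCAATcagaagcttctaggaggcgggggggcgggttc
Zfp869: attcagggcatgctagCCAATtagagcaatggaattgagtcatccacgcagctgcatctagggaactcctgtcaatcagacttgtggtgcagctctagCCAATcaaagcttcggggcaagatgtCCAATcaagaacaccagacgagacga
Zfp866: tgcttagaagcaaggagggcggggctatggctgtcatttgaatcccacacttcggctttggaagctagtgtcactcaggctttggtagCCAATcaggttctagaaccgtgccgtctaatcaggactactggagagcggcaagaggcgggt
Zfp799: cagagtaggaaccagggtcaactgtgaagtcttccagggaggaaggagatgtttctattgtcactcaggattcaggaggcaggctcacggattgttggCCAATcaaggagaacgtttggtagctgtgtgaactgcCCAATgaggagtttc
Zfp747: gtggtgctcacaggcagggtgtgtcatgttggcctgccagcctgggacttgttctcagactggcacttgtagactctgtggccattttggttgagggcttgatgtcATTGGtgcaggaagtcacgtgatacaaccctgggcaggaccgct
Zfp948: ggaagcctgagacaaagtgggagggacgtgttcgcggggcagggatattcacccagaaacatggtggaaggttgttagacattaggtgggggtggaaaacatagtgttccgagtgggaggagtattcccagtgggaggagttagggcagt
Zfp868 has 2 boxes, Zfp869 has 3, Zfp866 has 1, Zfp799 has 2, Zfp747 has 1 and Zfp948 has none in these windows. Of the 6, Zfp866, Zfp747 and Zfp948 had HA-Tex10 at a TSS. The 6 were picked by their number of boxes, so they say nothing about boxes and HA-Tex10. A match is a match of letters, and no binding of NF-Y was measured.

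The genes through which KRAB proteins act were also read. Of a list of 18 partner genes, 17 were found, Tasor not under that symbol, and 17 of 17 had H3K4me3 at a TSS, against 62.6% of all genes. HA-Tex10 was at a TSS of 5 of the 17, where the share was 9.13% of all genes and 14.3% of those with H3K4me3. No interval was computed for this small count, so a difference from those shares was not tested. The 5 genes were Atf7ip and Setdb1, which together methylate H3K9, Cbx3 and Cbx5, which encode HP1 proteins, and the maintenance DNA methyltransferase Dnmt1. Trim28, the corepressor itself, and Dnmt3a had HA-Tex10 over the gene body only. Cbx1, Chd4, Dnmt3b, Morc3, Mphosph8, Pphln1, Resf1, Smarcad1, Uhrf1 and the imprint-protecting Zfp57 had none.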

How the data were processed

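ChIP-seq was made by the submitters from day 2 PGCLCs with antibodies to HA and to H3K4me3, with input DNA. Per the submitters' processing notes, Bowtie2 2.3.4.3, SAMtools 1.9, MACS2 2.1.2 and HOMER were used with genome build mm10, without their settings. The lists deposited by the authors hold interval positions in bp, without scores. Whether the authors called intervals per replicate or on pooled reads, and how reads with several placements were treated, is not given in the sources used here. A further deposited list repeated 2990 HA-Tex10 intervals and was not used. No interval ended past a GRCm38 chromosome end (0 in both lists).

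Genes and starts came from GENCODE M21. Clustered meant under 100 kb from another of the 127 genes. Mostly repeated meant that over 50% of the 32-base words of an interval, or of the 1001 bases around a TSS, occurred more than once in the assembled chromosomes; intervals under 100 bp were widened to 100 bp, and of wider H3K4me3 intervals the central 300 bp were read. Fingers (C, 2 or 4 residues, C, 12 residues, H, 3 to 5 residues, H) and KRAB letters were counted in translations of the longest GENCODE coding transcript on the RefSeq GRCm38.p6 genome, where a RefSeq protein had been planned. Intervals were aligned with Biopython 1.88, and other steps used Python 3.11.15, numpy 2.4.6 and pandas 2.3.3. Functions were tested on simulated data. With 1 list per antibody no test over samples was possible, so no p-value is given, and neighbouring genes are not independent.

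The genes, lists and motifs were chosen with earlier results of these data known. Named were all genes with HA-Tex10, those with the 5 widest and 5 narrowest H3K4me3 intervals, members of the largest clusters and unmarked genes. Alternatives changed the TSS window, the starts, the interval widths, the overlap rule, repeats, shared promoters, the cluster rule and the chromosomes included.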

Additional observations from a re-analysis of the deposited data

How the results depend on the processing

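No paired analysis was possible because the 2 deposited lists hold no replicate values, and for the same reason no replicate could be left out. Of 52 values under alternatives, 42 stayed within the 95% interval of the value reported. The 10 that moved were as follows. With intervals wider than the median of their list, H3K4me3 stood at a TSS of 78.0% and over the body of 80.3% of the genes, HA-Tex10 at a TSS of 9.45%, and the H3K4me3 difference between clustered and single genes was -8.17 points (-21.9 to 6.56). Over all genes those shares were 51.5%, 54.0% and 4.86%. With mostly repeated intervals left out, H3K4me3 stood at a TSS of 63.8% and over the body of 66.9%, and HA-Tex10 at a TSS of 9.45% and over the body of 9.45%, against 61.3%, 63.7%, 8.63% and 8.09% of all genes. That setting leaves out intervals at genes with a mostly repeated TSS, which 37 of the 127 have, and also some at genes with a mostly single-copy TSS. HA-Tex10 over the body was 12.6% without chromosome 4 and 8.25% without chromosomes 4 and 8, both alternatives chosen after seeing the data. The HA-Tex10 difference between clustered and single genes changed sign in 2 of 11 alternatives, to -4.74 points without chromosome 8 and -3.25 points without shared promoters, with intervals that include 0. The depth is unknown, so the lack of an interval is no evidence that a site was unbound.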
